A study of Mus musculus with 8 samples.

Results

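The hypoxia targets and glycolysis enzymes described here are 38 mouse genes, chosen by a list of gene symbols and not by a threshold on measured values. The list was made with earlier results of these data known, so counts of its genes set against all genes are description only. The 38 genes comprise 4 genes of oxygen sensing, 12 targets of hypoxia-inducible factors, 3 transporters of glucose and lactate, 16 glycolysis enzymes and 3 regulators of glycolytic flux. On the array 34 of the 38 had a probe set of their own, and 32 were bright enough to be tested, out of 13196 genes tested in all.

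They were measured in 2 established mouse cell lines: CT26, of epithelial cells from a colon tumour, and RAW264 (RAW below), of macrophages. The 4 groups were CT26 cells in co-culture with RAW cells, CT26 cells alone, RAW cells in co-culture with CT26 cells, and RAW cells alone, all kept in RPMI 1640 medium without any other treatment. In co-culture, RAW cells in a transwell insert hung above CT26 cells in the well, so that molecules could pass through the membrane and the cells did not touch. For each line 10000 cells were seeded, the inserts went into the wells 8 hours later, and the experiment was done 2 times, which gave 2 arrays per group. The time from there to harvest is not given in the sources used here, nor are oxygen, glucose or cell number at harvest. Trypsin was used to detach CT26 cells before lysis and TRIzol was put directly on the inserts of RAW cells, which means that line and harvest cannot be told apart. Each line is a single cell line, and p-values measure only the spread between samples of these 2 experiments.

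Cells in low oxygen stabilise the alpha subunits of hypoxia-inducible factors, Hif1a and Epas1, because the prolyl hydroxylases that mark them for destruction (Egln1, Egln3) need oxygen to work. The stabilised factor binds short DNA elements and raises transcription of genes for glucose uptake, glycolysis and lactate export, and of genes for mitochondrial clearance and pH control. In macrophages the same programme also accompanies inflammatory activation, and in tumour cells it can run with oxygen present. Control of Hif1a itself acts mostly on the protein, which these arrays do not measure.

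Values are log2 expression of Affymetrix probe sets, as made by the authors with RMA, and 1 unit is a doubling of signal. A level is compared only between groups for the same probe set. Genes were tested where both arrays of at least 1 group exceeded a floor, the array's own percentile 40, which was 5.21 to 5.28 log2 units. Changes were tested with limma over all 13196 genes, and a gene is said to have passed where the Benjamini-Hochberg adjusted p was under 0.05. Errors of changes are standard errors of the fit without a block for the experiment unless a block is named. The labels number the experiments, so the same changes were also fitted with a block for the experiment within each line (block per line below), which leaves 2 residual degrees of freedom in place of 4.

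The macrophage markers set the lines apart, and the CT26 line markers did so in part. All 19 macrophage markers lay above the floor in every RAW array, and between 9 and 13 of them did in CT26 arrays. Their summed level was 10.97 log2 units in both CT26 co-culture arrays, against 11.03 and 11.12 in CT26 alone. The summed CT26 line markers stood at 14.15 and 14.53 in RAW co-culture, against 14.50 and 14.83 in RAW alone. Within each experiment the partner line's summed signal was lower in co-culture than alone in both lines, and in RAW 10 and 10 of 16 CT26 markers were above the floor in co-culture, against 8 and 9 alone. What these levels contribute to the results was not tested. The difference between 3' and 5' control probe sets of Gapdh lay between -0.22 and -0.12 log2 units over the 8 arrays.

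The members that could not be tested are described first. Of the oxygen-sensing genes, Epas1, the alpha subunit best known from endothelium, lay between 5.02 and 5.32 in the 8 arrays, around the floor, and Egln3 between 4.15 and 4.73, below it. Gpi1 and Eno1, enzymes of upper and lower glycolysis, had no probe set named for them alone. The probe sets of Gapdh, the glyceraldehyde phosphate dehydrogenase, also match its pseudogenes, as do those of Bnip3l, a receptor for mitochondrial clearance. The brightest probe set shared by Bnip3l and its pseudogene read 11.62 and 10.41 in CT26 co-culture, against 11.06 and 10.38 in CT26 alone. In RAW it read 11.01 and 10.67 in co-culture, against 10.85 and 10.56 alone.

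Grown alone, the lines differed most in Aldoc and Slc2a3, which were higher in RAW, and in P4ha2 and Eno2, which were lower in RAW. Of the 32 tested members, 8 were higher and 5 lower in RAW alone than in CT26 alone. Of all genes tested, 34.6% passed in this comparison, 17% higher and 17.6% lower, so the members' share of 13 in 32 is near the background. With the shared block 18 members passed, where 52.9% of all genes did, and with the block per line 12 were higher and 10 lower, where 58.6% of all genes passed, 28.3% higher and 30.4% lower. The median difference was -0.04 log2 units for 13 tested glycolysis enzymes, -0.39 for 11 tested hypoxia targets and -0.05 for all genes.

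Among the transporters, Slc2a3, the high-affinity glucose transporter GLUT3, read 10.34 and 10.93 in RAW alone, against 5.42 and 5.78 in CT26 alone. The difference was 5.03 ± 0.32 log2 units (SE, limma adjusted p = 2.54e-05), and the 3 dimmer probe sets of the gene gave 4.60, 2.87 and 2.19. Slc16a3, the lactate exporter MCT4, read 9.51 and 10.35 in RAW alone, against 7.31 and 7.80 in CT26 alone, a difference of 2.38 ± 0.45 (adjusted p = 0.00581). For both genes the RAW arrays lay clear above the CT26 arrays. Slc2a1, the widespread glucose transporter GLUT1, read 11.96 and 11.55 in RAW alone, against 11.30 and 10.41 in CT26 alone, and its difference of 0.90 ± 0.48 did not pass (adjusted p = 0.203).

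Among the enzymes, Aldoc, the aldolase isoform best known from brain, read 11.06 and 11.22 in RAW alone, against 6.01 and 5.93 in CT26 alone, a difference of 5.18 ± 0.17 (limma adjusted p = 1.38e-06). Its dimmer probe set, with a mean of 5.56 over the 8 arrays, gave a difference of 2.11. The other aldolase, Aldoa, was high in both lines, at 13.46 and 13.83 in RAW alone against 12.90 and 12.84 in CT26 alone (difference 0.77 ± 0.17, adjusted p = 0.0124). Both aldolases were thus higher in RAW, by unequal amounts. Pfkp, the platelet-type phosphofructokinase, was higher in RAW alone by 2.10 ± 0.28 (adjusted p = 0.00121), with 10.81 and 11.16 against 9.13 and 8.65 in CT26 alone. The liver-type Pfkl (-0.12 ± 0.45) and the muscle-type Pfkm (-0.31 ± 0.12, adjusted p = 0.086) did not pass. Pkm, the pyruvate kinase, read 14.41 and 14.87 in RAW alone, against 13.59 and 13.98 in CT26 alone (0.86 ± 0.25, adjusted p = 0.0374), a call that is lost without CT26 alone 1, CT26 alone 2 or RAW alone 2, at 0.67, 1.06 and 0.63.

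Eno2, the enolase of neurons and neuroendocrine cells, went the other way, with 5.19 and 5.79 in RAW alone, against 8.33 and 7.47 in CT26 alone (-2.41 ± 0.68, limma adjusted p = 0.0313). The first RAW value lies below the floor, so the size of this difference is uncertain. It lost its call on leaving out any array of these groups, with differences between -2.84 and -1.97. The enzymes between aldolase and lactate, apart from these, differed little: Tpi1 by -0.08 ± 0.13, Pgk1 by -0.04 ± 0.13, Pgam1 by 0.01 ± 0.13 and Ldha, the lactate dehydrogenase subunit, by -0.14 ± 0.12. Pfkfb4, a kinase and phosphatase that sets fructose 2,6-bisphosphate, was higher in RAW alone by 0.58 ± 0.12 (adjusted p = 0.00976), with 8.68 and 8.59 against 8.14 and 7.98 in CT26 alone.

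The hypoxia targets split by gene. P4ha2, a collagen prolyl hydroxylase subunit, lay below the floor in every RAW array, with 4.55 and 4.27 in RAW alone, against 9.62 and 8.96 in CT26 alone. Set against the lowest level counted as measured, CT26 alone was at least 16.7-fold higher (fitted RAW minus CT26 difference -4.88 ± 0.44, limma adjusted p = 0.00016), and P4ha2 passed the filter only through CT26. Its paralog P4ha1 was measured in both lines and did not pass, at 0.57 ± 0.27. Ndrg1, a stress gene that responds strongly to hypoxia, read 8.44 and 9.23 in RAW alone, against 11.00 and 10.77 in CT26 alone (-2.05 ± 0.38, adjusted p = 0.00522). Its 5 probe sets gave differences between -2.18 and -1.38.

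Egln1, the main oxygen-sensing prolyl hydroxylase, was lower in RAW alone by 1.38 ± 0.16 log2 units (limma adjusted p = 0.000517), with 8.64 and 9.01 against 10.13 and 10.29 in CT26 alone. Bhlhe40, a circadian and hypoxia-responsive repressor, read 8.70 and 8.67 in RAW alone, against 9.90 and 9.56 in CT26 alone (-1.04 ± 0.32, adjusted p = 0.0443). That call is lost on leaving out any array except those of CT26 co-culture, with values between -1.21 and -0.87. Car9, a carbonic anhydrase of the cell surface that controls pH, was higher in RAW alone by 1.60 ± 0.23 (adjusted p = 0.00188), with 7.24 and 7.48 against 5.84 and 5.69. The CT26 values of Car9 are low signals. Hif1a itself read 11.82 and 11.59 in RAW alone, against 11.95 and 11.67 in CT26 alone, and its difference was -0.10 ± 0.21.

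**Figure D1:**
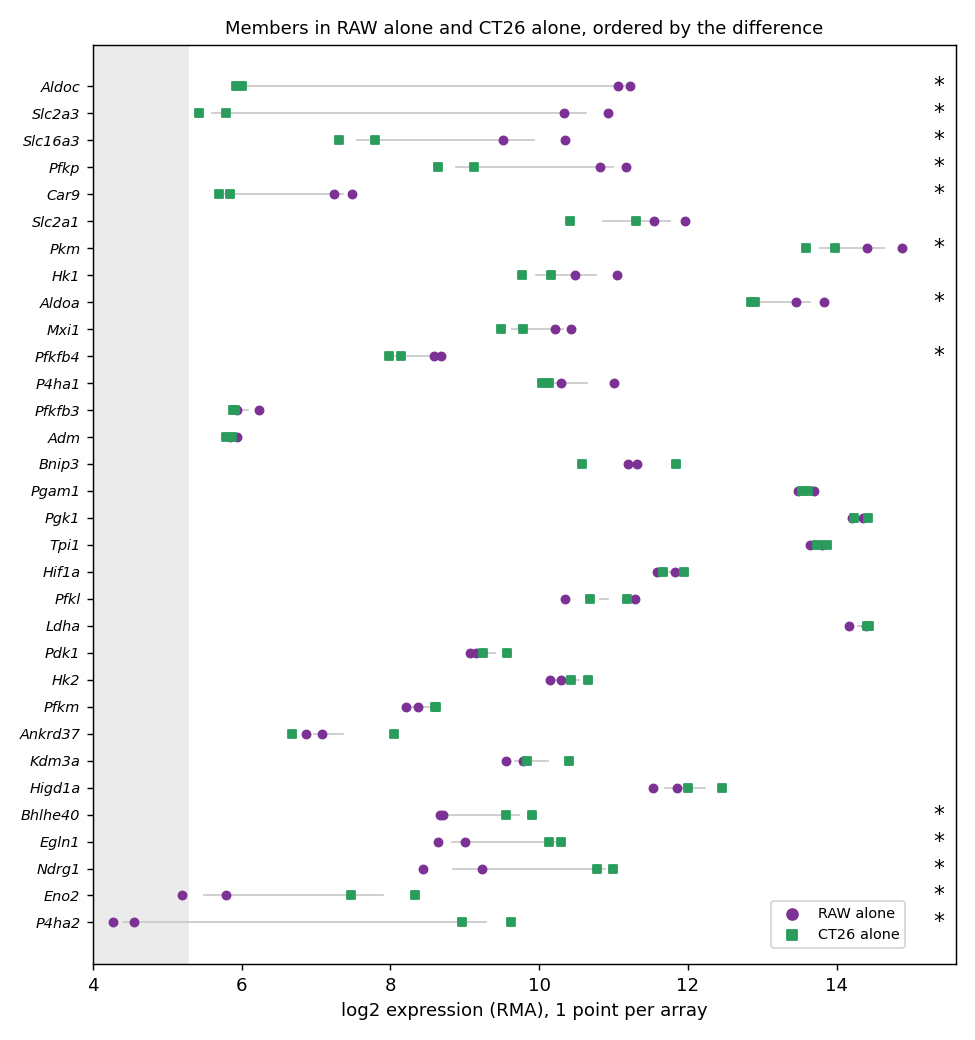
Log2 expression (RMA) of the 32 tested members, with 1 point per array for RAW alone (circles) and CT26 alone (squares), ordered by the difference of the means, which the grey line joins. Asterisks mark the 13 members that passed, and the shaded band is the range below 5.28, the highest floor of any array. Aldoc and Slc2a3 lie farthest to the RAW side, at differences of 5.18 and 5.03, and P4ha2 farthest to the CT26 side.

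RAW cells in co-culture had higher transcripts of Ndrg1, Bnip3, Slc16a3, Pfkfb3, Hk2 and Pfkl than RAW cells alone. Without a block 0 of 32 members passed, where 33 of 13196 genes did (0.25%). An unadjusted p under 0.05 was found for 4 members and for 694 of all genes. With a block shared by the lines 0 passed as well, where 1.11% of all genes did. In that fit 6 members and 1625 of all genes had an unadjusted p under 0.05. With the block per line 6 members were higher and 0 lower, where 3.56% of all genes passed, 1.55% higher and 2.01% lower. The calls below are therefore calls within pairs of the same experiment. The arrays measure RNA of the whole culture, so a change in the cells that express a gene and a change in its amount per cell cannot be told apart.

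Ndrg1 gave the largest mean change of any member in RAW, at 9.75 and 10.30 in RAW co-culture, against 8.44 and 9.23 in RAW alone. Both co-culture arrays lay above both arrays of cells alone, by 1.31 log2 units in experiment 1 and 1.07 in experiment 2. The mean change was 1.19 ± 0.38, or 2.28-fold (limma adjusted p = 0.698 without a block, 0.0113 with the block per line, where the SE is 0.16). All 5 of its probe sets gave a positive difference, between 0.78 and 1.49. Bnip3, a receptor that directs mitochondria to autophagy, read 12.14 and 12.00 in RAW co-culture, against 11.20 and 11.32 in RAW alone. Its rise was 0.81 ± 0.56 (limma adjusted p = 0.0124 with the block per line, SE 0.11), and here too the groups did not overlap.

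Slc16a3, which carries lactate out of glycolytic cells, read 10.01 and 11.21 in RAW co-culture, against 9.51 and 10.35 in RAW alone. The groups overlapped because both arrays of experiment 2 were higher, and within experiments the difference was 0.50 and 0.85. The mean rise was 0.68 ± 0.45 (limma adjusted p = 0.0214 with the block per line, SE 0.11). Without a block, leaving out RAW co-culture 2 gave 0.08 and leaving out RAW co-culture 1 gave 1.27. Slc2a1 and Slc2a3, which take glucose up, did not pass, at -0.03 ± 0.15 and 0.15 ± 0.12 with the block per line. The dimmer probe sets of Slc2a1 gave 0.03 and 0.30, and the 4 probe sets of Slc2a3 gave between 0.13 and 0.32.

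Of the 13 tested glycolysis enzymes 2, Hk2 and Pfkl, passed with the block per line. Hk2, the inducible hexokinase that traps glucose in the cell, read 10.55 and 10.91 in RAW co-culture, against 10.15 and 10.29 in RAW alone, with no overlap. Its rise was 0.51 ± 0.17 (limma adjusted p = 0.738 without a block, 0.034 with the block per line). Pfkl, the liver-type phosphofructokinase, read 10.73 and 11.83 in RAW co-culture, against 10.34 and 11.29 in RAW alone. Its rise was 0.46 ± 0.45 in the fit without a block, where it did not pass, and its limma adjusted p was 0.0391 with the block per line. The groups of Pfkl overlapped and the experiments differed by more than the cultures did. Within experiments the difference was 0.39 and 0.54. The dimmer probe sets of Pfkl gave 0.58 and -0.12. Without a block the change of Pfkl was -0.01 without RAW alone 1 and -0.08 without RAW co-culture 2, and averaged over its 3 probe sets it was 0.31 and did not pass (adjusted p = 0.0935). The other isoforms of these enzymes did not pass, with Hk1 at -0.24 ± 0.33, Pfkm at -0.09 ± 0.12 and Pfkp at 0.42 ± 0.28.

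Pfkfb3, the kinase whose product activates phosphofructokinase, read 6.43 and 7.06 in RAW co-culture, against 5.94 and 6.24 in RAW alone. These are low signals, and both co-culture arrays lay above both arrays of cells alone, with a rise of 0.66 ± 0.22 (limma adjusted p = 0.0289 with the block per line). Its dimmer probe set gave 0.41, and the average of the 2 did not pass (adjusted p = 0.0974). Pdk1, which blocks entry of pyruvate into mitochondria, read 9.46 and 9.55 in RAW co-culture, against 9.07 and 9.15 in RAW alone. The groups of Pdk1 did not overlap, and its change of 0.39 ± 0.20 did not pass (adjusted p = 0.0745 with the block per line). The dimmer probe sets of Pdk1 gave 0.15, 0.24 and -0.30.

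Adm, the gene of the vasodilator peptide adrenomedullin, read 6.38 and 7.71 in RAW co-culture, against 5.94 and 5.84 in RAW alone. The values of RAW alone are low signals. Both co-culture arrays were higher, by 0.44 in experiment 1 and 1.87 in experiment 2, and the mean of 1.16 ± 0.39 did not pass (limma adjusted p = 0.0945 with the block per line). Averaged with its other probe set, which gave 1.14, it passed with that block (adjusted p = 0.0226). Ankrd37, a small ankyrin-repeat gene that hypoxia raises in many cells, read 7.71 and 7.61 in RAW co-culture, against 6.86 and 7.08 in RAW alone, and also missed the threshold (0.69 ± 0.21, adjusted p = 0.145 with the block per line). Bhlhe40 was 8.06 and 8.52 in RAW co-culture, against 8.70 and 8.67 in RAW alone. It and Car9 were the only tested hypoxia targets whose 2 co-culture arrays both lay below both arrays of cells alone. Of all genes 12.3% did so.

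In counts over all 32 tested members, 19 were higher in RAW co-culture than in RAW alone in both experiments, against 32.5% of all genes, and 8 were lower in both, against 29.1%. For 11 members both co-culture arrays lay above both arrays of RAW alone, against 14.2% of all genes. For 3 (Car9, Bhlhe40 and Pfkfb4) both lay below, against 12.3%. The median change was 0.29 log2 units for 11 hypoxia targets and 0.15 for 13 glycolysis enzymes, against 0.01 for all genes, and P4ha2, below the floor in RAW, is among these targets. The enzymes after the aldolase step lay between -0.005 and 0.41, with Ldha at 0.18 ± 0.12, Tpi1 at 0.22 ± 0.13 and Pkm at -0.005 ± 0.25, and none of them passed in any of the 3 fits. Hif1a, at 11.73 and 11.37 in RAW co-culture against 11.82 and 11.59 in RAW alone, gave -0.16 ± 0.21.

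**Figure D2:**
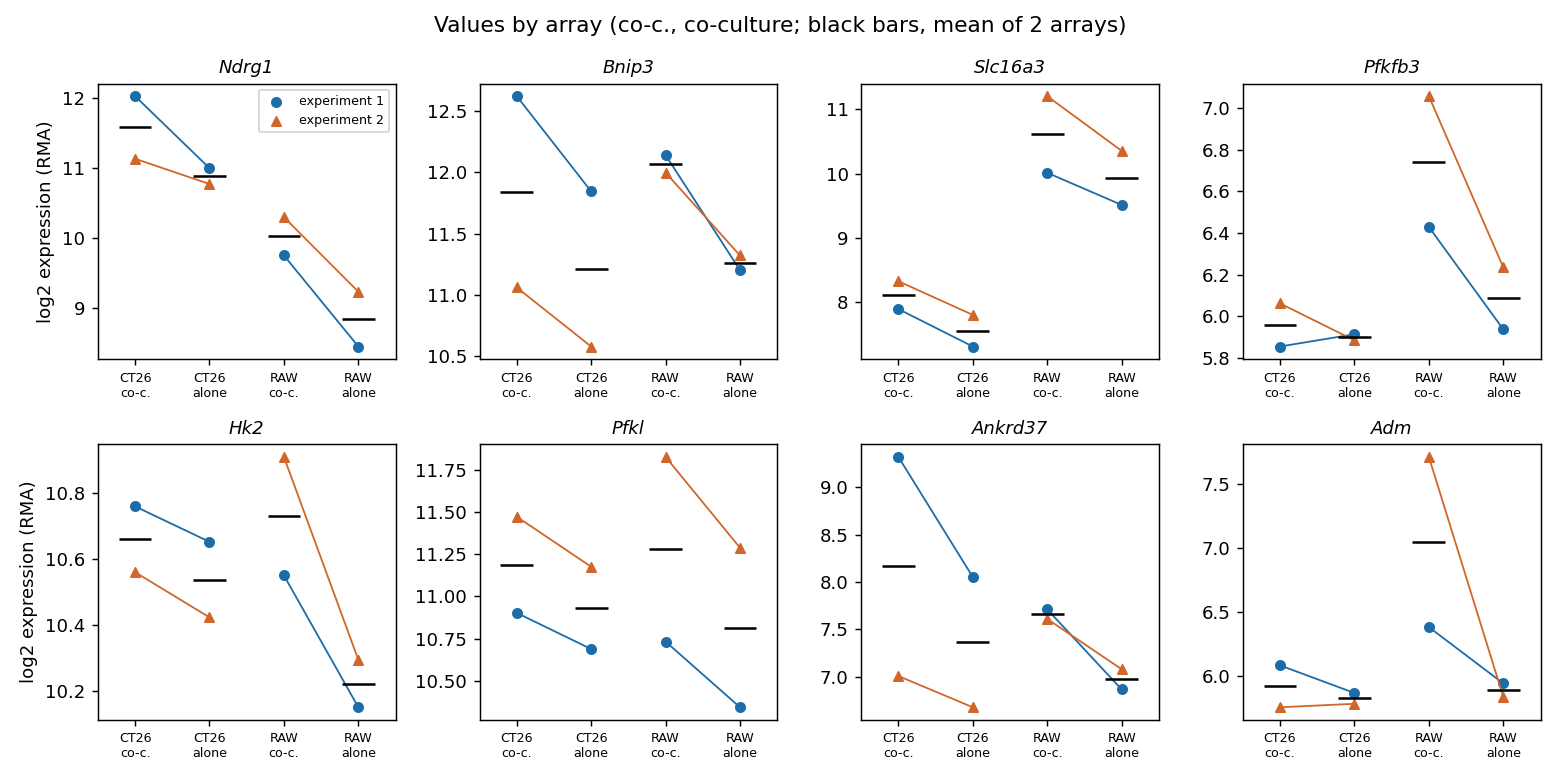
Log2 expression (RMA) of 8 members in each of the 8 arrays, with co-culture left of alone for each line, lines joining the arrays of the same experiment and black bars at the mean of 2 arrays. In RAW all 8 are higher in co-culture in both experiments, and Ndrg1, Bnip3, Slc16a3, Pfkfb3, Hk2 and Pfkl passed with the block per line.

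The elements that hypoxia-inducible factors bind have a short core, and the start regions of the members were read for its letters. The motifs were ACGTG and GCGTG, with CACGT and CACGC for the other strand, and overlapping matches were joined into 1. Windows from 250 bases before to 50 bases after the annotated start were taken from RefSeq (GRCm38.p6), which listed 50 windows for 33 of the 38 members. Ndrg1, Epas1, Bhlhe40, Slc2a3 and Bnip3l were not in that table. At least 1 match stood in the windows of 30 of the 33 members (90.9%), against 46.7% of 27025 genes, and at least 2 in those of 23 (69.7%), against 19.1%. The motifs hold a CpG, and the member windows had a median of 21 CpG against 7 over all windows. Of windows with at least 21 CpG, 23 of 26 member windows (88.5%) and 74% of all such windows held a match. Shown here are the windows of the 4 members that passed in RAW and have a single window, with Ankrd37 and P4ha2, hypoxia targets that did not. Capitals mark the matches.
Bnip3, chr7:138909457-138909756, minus strand: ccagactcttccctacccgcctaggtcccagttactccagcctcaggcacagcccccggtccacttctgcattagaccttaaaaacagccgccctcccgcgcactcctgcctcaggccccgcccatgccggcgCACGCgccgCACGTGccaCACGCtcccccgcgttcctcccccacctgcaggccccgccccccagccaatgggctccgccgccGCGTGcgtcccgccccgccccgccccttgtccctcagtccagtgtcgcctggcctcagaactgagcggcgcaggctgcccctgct
Ankrd37, chr8:45999801-46000100, minus strand: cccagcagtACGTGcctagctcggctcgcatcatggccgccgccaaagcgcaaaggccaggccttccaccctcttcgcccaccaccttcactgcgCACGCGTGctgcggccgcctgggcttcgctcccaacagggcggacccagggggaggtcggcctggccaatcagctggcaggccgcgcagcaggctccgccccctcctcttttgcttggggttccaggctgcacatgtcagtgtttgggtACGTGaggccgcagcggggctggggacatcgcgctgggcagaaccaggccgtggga
P4ha2, chr11:54100674-54100973, plus strand: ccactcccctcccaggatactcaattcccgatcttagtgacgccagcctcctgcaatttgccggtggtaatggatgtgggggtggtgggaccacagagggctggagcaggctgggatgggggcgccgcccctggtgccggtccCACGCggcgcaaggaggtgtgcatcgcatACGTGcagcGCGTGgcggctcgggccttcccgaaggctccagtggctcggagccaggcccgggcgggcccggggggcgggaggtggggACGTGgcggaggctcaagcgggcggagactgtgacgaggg
Slc16a3, chr11:120948817-120949116, plus strand: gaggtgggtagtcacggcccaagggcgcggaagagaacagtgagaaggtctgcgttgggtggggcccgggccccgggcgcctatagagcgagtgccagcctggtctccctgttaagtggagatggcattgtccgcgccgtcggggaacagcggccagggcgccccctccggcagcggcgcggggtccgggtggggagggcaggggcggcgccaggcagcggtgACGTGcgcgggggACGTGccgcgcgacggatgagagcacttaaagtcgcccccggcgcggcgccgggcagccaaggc
Hk2, chr6:82774405-82774704, minus strand: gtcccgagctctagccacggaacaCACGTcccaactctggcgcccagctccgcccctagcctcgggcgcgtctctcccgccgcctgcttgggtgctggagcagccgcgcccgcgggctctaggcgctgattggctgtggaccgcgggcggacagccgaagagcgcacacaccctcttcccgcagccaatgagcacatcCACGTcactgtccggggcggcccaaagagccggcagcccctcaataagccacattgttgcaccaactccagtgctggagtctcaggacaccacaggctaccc
Pfkl, chr10:78009758-78010057, minus strand: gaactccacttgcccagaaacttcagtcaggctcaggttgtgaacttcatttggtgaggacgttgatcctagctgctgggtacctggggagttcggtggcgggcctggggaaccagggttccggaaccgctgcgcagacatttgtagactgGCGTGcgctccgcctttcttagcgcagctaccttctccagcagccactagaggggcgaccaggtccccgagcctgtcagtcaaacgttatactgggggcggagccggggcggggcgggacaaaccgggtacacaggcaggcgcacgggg
Bnip3 and P4ha2 each held 4 runs of matching letters, Ankrd37 held 3, Slc16a3 and Hk2 held 2 and Pfkl held 1. In Bnip3 they began 117, 108, 99 and 35 bases before the annotated start, and in Slc16a3 27 and 14 bases before it. P4ha2, with as many runs as Bnip3, was not above the floor in RAW, and the windows of Eno2, Tpi1 and Gpi1 held none. A match is only a match of letters, and binding was not measured.

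In CT26 cells no member passed, and most were slightly higher in co-culture. In all 3 fits 0 of 32 members and 0% of the 13196 genes passed. At an unadjusted p under 0.05 there were 0 members without a block, 2 with the shared block and 13 with the block per line. Over all 13196 genes there were 107, 356 and 752. Of the 32 members 30 had a positive mean change, against 45.3% of all genes. In both experiments 25 were higher, against 23.8% of all genes, and 1 (Pfkfb4) was lower, against 30.1%. These counts take differences of any size, and Higd1a, one of the 25, read 12.01 in both CT26 arrays of experiment 2. For 8 members both co-culture arrays lay above both arrays of CT26 alone, against 9.69% of all genes. For 1 (Pfkfb4) both lay below, against 11.3%. The median change was 0.36 log2 units for the hypoxia targets and 0.13 for the glycolysis enzymes, against -0.01 for all genes.

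The hypoxia targets differed more in experiment 1. All 11 gave a larger difference there, with a median of 0.61, against 0.11 in experiment 2. So did 24 of the 32 members and 7 of the 13 glycolysis enzymes, and the share over all genes was not counted. The medians over all genes were -0.01 in experiment 1 and -0.01 in experiment 2. In fits without a block, the median of the hypoxia targets was -0.07 without CT26 co-culture 1 and 0.76 without CT26 co-culture 2. Each of these fits sets 1 co-culture array against CT26 alone of both experiments. Ankrd37 shows the pattern, with 9.32 and 7.01 in CT26 co-culture, against 8.05 and 6.68 in CT26 alone, so that its groups overlapped although co-culture was higher in both pairs, by 1.27 and 0.33. Its change of 0.80 ± 0.74 had an adjusted p of 0.615 with the block per line in limma. Bnip3, at 12.62 and 11.06 in CT26 co-culture against 11.85 and 10.57 in CT26 alone, had the smallest adjusted p of the members, 0.375 with that block (0.63 ± 0.56).

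Ndrg1 read 12.03 and 11.13 in CT26 co-culture, against 11.00 and 10.77 in CT26 alone, without overlap and with a change of 0.70 ± 0.38 that did not pass (limma adjusted p = 0.555 with the block per line). Car9 read 6.49 and 5.78 in CT26 co-culture, against 5.84 and 5.69 in CT26 alone, with a change of 0.37 ± 0.23 and overlapping groups. These are low signals, and the difference in experiment 2 was 0.09. Bhlhe40, at 10.65 and 9.69 against 9.90 and 9.56, gave 0.45 ± 0.32. Mxi1, a Myc antagonist, read 10.39 and 9.60 in CT26 co-culture, against 9.78 and 9.49 in CT26 alone, and gave 0.36 ± 0.28. For Bhlhe40 and Mxi1 the array of co-culture in experiment 1 stood above the other 3. Without it and without a block their changes were -0.04 and -0.03. That fit sets co-culture of experiment 2 against CT26 alone of both experiments, and within experiment 2 the differences were 0.14 and 0.11.

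Outside the target group Eno2 had the largest mean change, at 9.49 and 7.65 in CT26 co-culture against 8.33 and 7.47 in CT26 alone (0.68 ± 0.68, limma adjusted p = 0.831 with the block per line), with most of it in experiment 1. Egln1 read 10.52 and 10.50 in CT26 co-culture, against 10.13 and 10.29 in CT26 alone, without overlap, and its change was 0.30 ± 0.16 (limma adjusted p = 0.79 with the block per line). Slc16a3 read 7.89 and 8.32 in CT26 co-culture, against 7.31 and 7.80 in CT26 alone, a change of 0.55 ± 0.45 (adjusted p = 0.408 with that block). Pdk1 read 9.98 and 9.43, against 9.57 and 9.24 in CT26 alone, a change of 0.29 ± 0.20. Tpi1, the triose phosphate isomerase, read 14.06 and 13.87 in CT26 co-culture, against 13.87 and 13.74 in CT26 alone, a change of 0.16 ± 0.13. All 13 glycolysis enzymes had a positive mean change, against 45.3% of all genes. In both experiments 11 of them were higher, against 23.8% of all genes. The medians of the 13 were 0.12 and 0.14 in experiments 1 and 2.

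**Figure D3:**
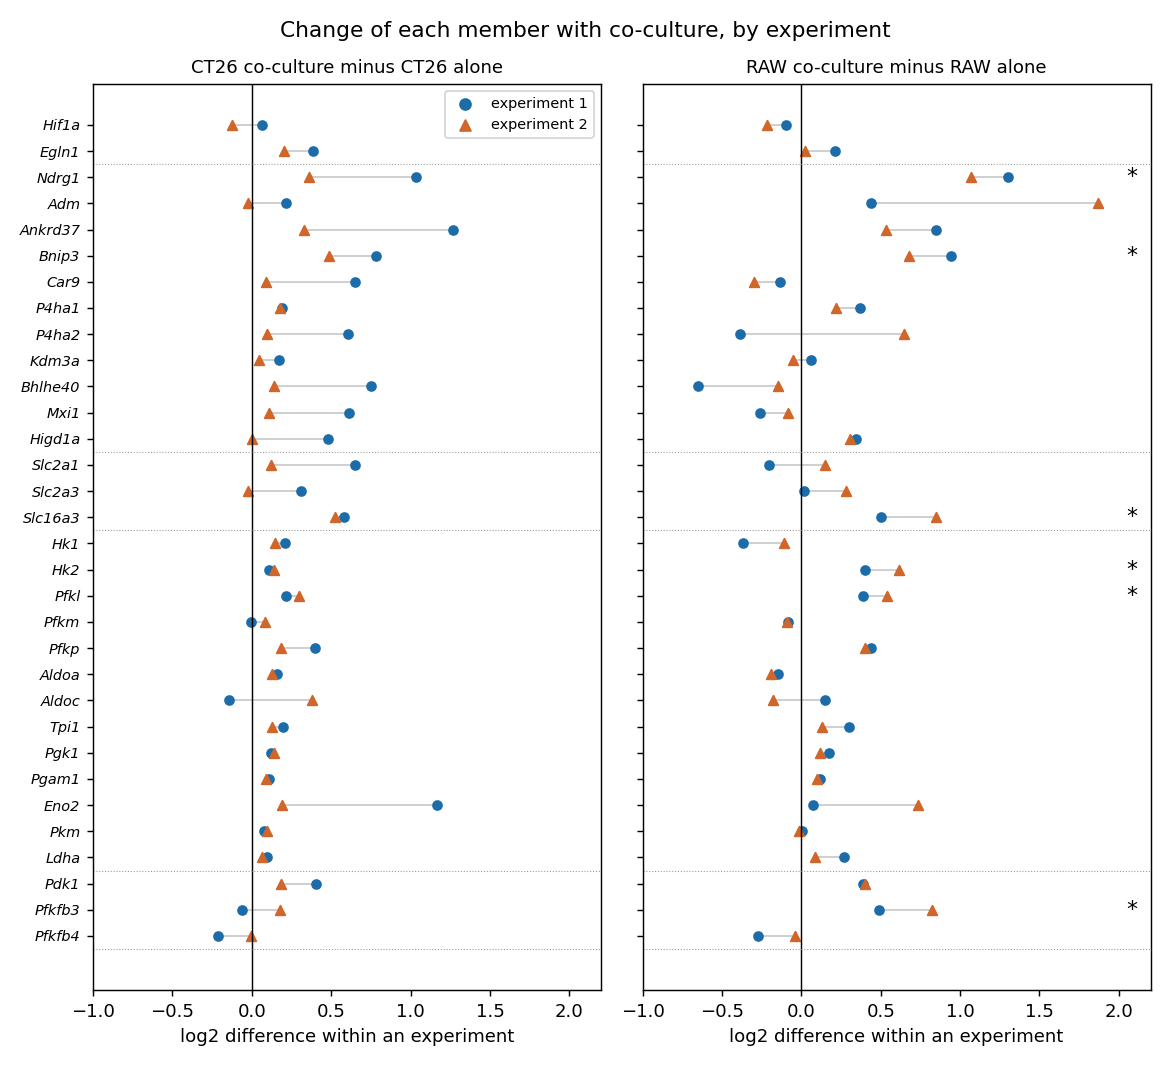
Log2 difference, co-culture minus alone, of the 32 tested members within experiment 1 (circles) and experiment 2 (triangles), for CT26 on the left and RAW on the right. Dotted lines part oxygen sensing, hypoxia targets, transport, glycolysis enzymes and flux regulators, and asterisks mark the 6 members that passed with the block per line, all in RAW. In CT26 the circles of the hypoxia targets lie to the right of the triangles.

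The change in RAW was tested against the change in CT26 directly. No member passed, without a block (0.00758% of all genes passed), with the shared block (0.0834%, with 0.0379% higher and 0.0455% lower) or with the block per line (0.743%). In these fits 0, 1 and 8 members had an unadjusted p under 0.05, where 328, 888 and 1508 of all 13196 genes did. The calls in RAW are therefore not shown to differ from the changes in CT26. For Ndrg1 the RAW change minus the CT26 change was 0.49, with a 95% interval from -0.04 to 1.02 with the block per line, and for Bnip3 it was 0.18, from -0.19 to 0.55. For Slc16a3 it was 0.12, from -0.23 to 0.48. The 5 members with the largest statistics were Adm (1.06 ± 0.55), Pfkfb3 (0.60 ± 0.31) and Hk2 (0.38 ± 0.24), whose change was more positive in RAW, and Bhlhe40 (-0.84 ± 0.45) and Car9 (-0.58 ± 0.33), whose change was more negative in RAW.

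Of the 32 members 16 were higher in co-culture in both lines and both experiments, against 8.79% of all genes, counting differences of any size. They were Egln1, the targets Ndrg1, Ankrd37, Bnip3, P4ha1 and Higd1a, the lactate exporter Slc16a3, Pdk1, and the enzymes Hk2, Pfkl, Pfkp, Tpi1, Pgk1, Pgam1, Eno2 and Ldha. Eno2 differed by 0.08 in the RAW pair of experiment 1, where its values lay near or below the floor. Higd1a, a mitochondrial protein, had 0.32 ± 0.33 in RAW and 0.24 ± 0.33 in CT26, did not pass, and was level to 2 decimals in the CT26 pair of experiment 2. Its dimmer probe sets gave -0.03 and 0.08 in RAW, and 0.15 and 0.23 in CT26. Another 5, Car9, Bhlhe40, Mxi1, Hk1 and Aldoa, were lower in both RAW pairs and higher in both CT26 pairs, against 5.67% of all genes, and 0 showed the reverse, against 8.54%. Car9 gave low signals in CT26 and differed by 0.09 in its CT26 pair of experiment 2. Hk1, the constitutive hexokinase, read 10.11 and 10.95 in RAW co-culture, against 10.48 and 11.05 in RAW alone. In CT26 it read 9.97 and 10.30 in co-culture, against 9.76 and 10.15 alone. The 5 probe sets of Aldoa all had mean changes of these signs, from -0.17 to -0.15 in RAW and from 0.14 to 0.19 in CT26.

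The experiments were also compared with each other. With culture held the same, 9 members passed for experiment 2 minus experiment 1 in the fit with a shared block, 5 higher and 4 lower, where 28.1% of all genes passed. Averaged over the lines with the block per line 7 were higher and 6 lower, where 38.9% of all genes passed, 22.1% higher and 16.8% lower. Both counts are near the share over all genes. Pkm (0.43 ± 0.06, limma adjusted p = 0.00408), Pfkl (0.77 ± 0.11), Slc16a3 (0.74 ± 0.13), Hk1 (0.53 ± 0.10) and Slc2a3 (0.46 ± 0.13) were higher in experiment 2. Kdm3a, a histone demethylase induced by hypoxia (-0.45 ± 0.09), Hif1a (-0.34 ± 0.07), Higd1a (-0.51 ± 0.11) and Slc2a1 (-0.69 ± 0.21) were lower. For Pkm the values in experiment 2 were 14.07 in CT26 co-culture and 14.86 in RAW co-culture, against 13.67 and 14.41 in the same groups of experiment 1.

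In CT26, 13 members were lower and 4 higher in experiment 2 with the block per line, where 19.9% of all genes passed, 6.77% lower and 13.2% higher. All 11 hypoxia targets were lower in experiment 2 in both CT26 groups, against 33.3% of all genes. Ankrd37 read 7.01 in co-culture and 6.68 alone in experiment 2, against 9.32 and 8.05 in experiment 1, a shift of -1.85 ± 0.21 (limma adjusted p = 0.0039). Bnip3 shifted by -1.42 ± 0.11, Eno2 by -1.35 ± 0.24, Slc2a1 by -1.16 ± 0.15 and P4ha2 by -0.92 ± 0.24. Each of these shifts was larger than the change of the same gene with co-culture in CT26.

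In RAW, 11 members were higher and 2 lower in experiment 2, where 31% of all genes passed, 18.1% higher and 12.9% lower. The highest shifts were those of Pfkl (1.02 ± 0.09), Slc16a3 (1.02 ± 0.11), Eno2 (0.93 ± 0.24), Slc2a3 (0.72 ± 0.12) and Hk1 (0.71 ± 0.10). For 6 members the shift in RAW exceeded the shift in CT26 in a direct test, where 2.04% of all genes passed, 1.3% in that direction and 0.735% in the other: Eno2 by 2.28 ± 0.34, Ankrd37 by 1.90 ± 0.29, Bnip3 by 1.41 ± 0.16, Ndrg1 by 1.23 ± 0.22, Pfkp by 0.92 ± 0.13 and P4ha1 by 0.74 ± 0.12 (limma adjusted p between 0.0177 and 0.0496). In experiment 1 Eno2 read 5.27 in RAW co-culture and 5.19 in RAW alone, near or below the floor. The sizes of its shift in RAW and of its difference between the lines are therefore uncertain. What differed between the experiments is not given in the sources used here.

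**Figure D4:**
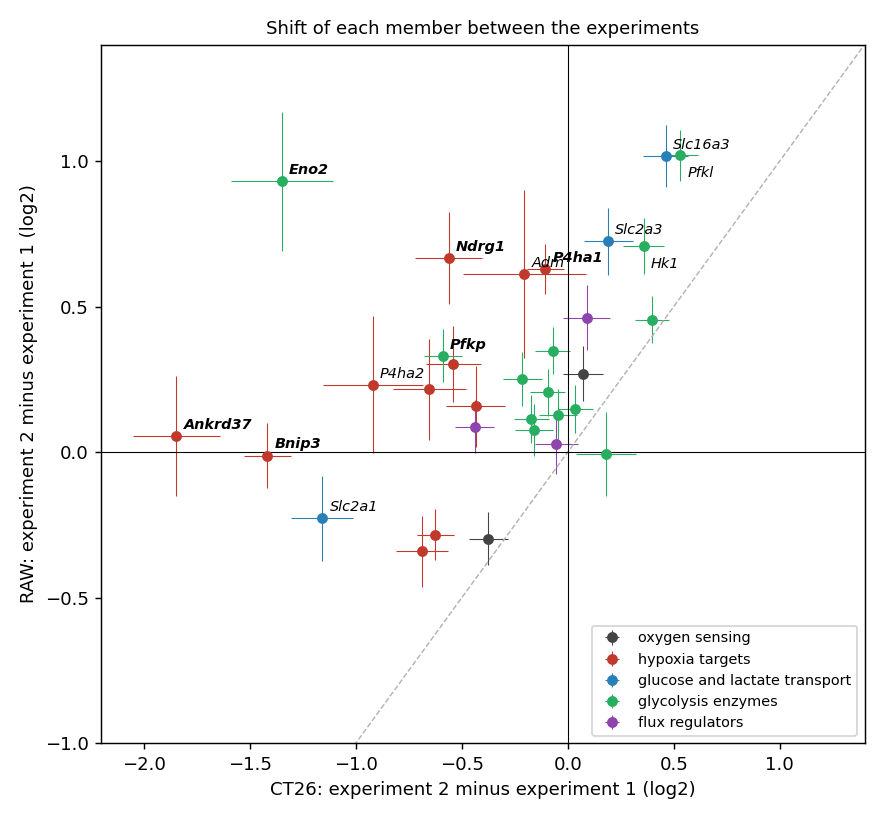
Shift of each of the 32 tested members from experiment 1 to experiment 2 (experiment 2 minus experiment 1, log2) in RAW on the vertical axis and in CT26 on the horizontal axis, with SE bars of the fit with a block per line, coloured by role. The dashed line marks equal shifts, and the 6 members in bold differed between the lines. Hypoxia targets lie left of 0 in CT26, and Pfkl and Slc16a3 lie highest in RAW.

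Other genes of the same pathways were taken from 3 further lists, which were also chosen with earlier results of these data known. Of 40 other hypoxia targets tested in RAW, 0 passed without a block, 2 were higher with the shared block and 4 were higher and 2 lower with the block per line, with a median change of 0.16. Over all genes 0.25% passed without a block, 1.11% with the shared block and 3.56% with the block per line. Stc2, a secreted glycoprotein of stress responses, read 9.17 and 9.03 in RAW co-culture, against 7.82 and 8.17 in RAW alone, a rise of 1.11 ± 0.16 (limma adjusted p = 0.00936 with the block per line). Vegfa, the vascular growth factor, read 7.95 and 8.32 in RAW co-culture, against 7.23 and 7.44 in RAW alone, a rise of 0.80 ± 0.19 (adjusted p = 0.00971 with the block per line). Selenbp1, a selenium-binding protein, rose by 0.83 ± 0.18 and Ak4, a mitochondrial adenylate kinase, by 0.66 ± 0.30. Hmox1, the heme oxygenase, fell by 0.98 ± 0.30, at 10.05 and 10.87 in RAW co-culture against 11.15 and 11.74 in RAW alone (adjusted p = 0.00942 with the block per line). Pdgfb, a growth factor chain, fell by 0.83 ± 0.84 (adjusted p = 0.0405 with the block per line, SE 0.16).

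Selenbp1 and Hmox1 also differed between the lines in their change with the block per line, by 0.99 (limma adjusted p = 0.0291) and -1.19 (adjusted p = 0.0399). In CT26 none of the 40 passed, with 1, 1 and 10 at an unadjusted p under 0.05 in the 3 fits, and the median was 0.10. Of 29 other genes of glucose metabolism, 0 passed in either line in any of the 3 fits. At an unadjusted p under 0.05 there were 1, 4 and 6 of them in RAW and 0, 1 and 5 in CT26. Over all 13196 genes there were 694, 1625 and 2418 in RAW and 107, 356 and 752 in CT26. Pgd, of the pentose phosphate pathway, had -0.35 ± 0.11 in RAW, and Slc16a1, the other main lactate carrier, 0.27 ± 0.14. Of 15 other regulators of the pathway, Siah2, a ubiquitin ligase acting on prolyl hydroxylases, was higher in RAW co-culture by 0.50 ± 0.27 with an adjusted p of 0.0298 in limma with the block per line, and 0 others passed. Between the lines grown alone, 8 of the 40 other targets were higher and 6 lower in RAW, a share near the 34.6% over all genes, among them Vegfa at -2.44 ± 0.19 and Ak4 at 5.31 ± 0.30.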

How the data were processed

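RNA of 8 cultures was hybridised to Affymetrix arrays with 1 colour, each culture on its own array. The deposited values are log2 expression values that the authors made with RMA in affy, per the submitters' processing notes. The sources used here give no versions, settings or genome build. RMA normalizes across arrays, so a change of total RNA per cell is not visible, and it understates folds of dim genes. Array medians lay between 5.88 and 5.94. Precision is limited by having 2 arrays per group.

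Controls aside, the table held 45037 probe sets. The platform annotation gave 34945 of them a single gene symbol, and 34741 matched RefSeq (GRCm38.p6) by Entrez identifier. Probe sets with several symbols were left out. A gene was represented by its brightest probe set, which gave 18193 genes, of which 13196 passed the floor. A model of 4 group means was fitted with limma 3.58.1 (R 4.3.3) to the 8 arrays together (lmFit, eBayes without trend, two-sided, Benjamini-Hochberg over 13196 genes, threshold 0.05).

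The labels number the experiments as replicates. After group means were removed, arrays with the same number correlated over genes (0.754 for the CT26 groups, 0.765 for the RAW groups, 0.484 to 0.561 across lines), so the numbers were taken to pair the samples. The fits were run on simulated data with known changes. Those data held no shift between experiments, so the run cannot show how the blocks act on paired samples.

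Values per array are given for members that passed without a block or with the block per line, filled to 8 per co-culture comparison and to 5 for the difference by the largest statistics, for the 6 largest differences per direction between the lines and for the 5 largest statistics between experiments. Ankrd37 and the other members given per array were chosen after their values were seen. The members and all lists were chosen with earlier results of these data known, and so was the test of the experiment shift between the lines. Alternatives were other normalizations, filters, probe set rules, blocks and leaving out each array.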

Additional observations from a re-analysis of the deposited data

Results flagged for a closer look

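Differences of 5 members had opposite signs in the lines, with co-culture lower in both RAW pairs and higher in both CT26 pairs. The RAW change minus the CT26 change was -0.58 for Car9, -0.84 for Bhlhe40, -0.53 for Mxi1, -0.41 for Hk1 and -0.31 for Aldoa (log2). None of these differences passed in the direct test with limma, with adjusted p between 0.238 and 0.374 with the block per line.

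For 6 members the shift between experiments differed between the lines in a direct test, as RAW shift minus CT26 shift: 1.23 for Ndrg1, 1.90 for Ankrd37, 1.41 for Bnip3, 0.74 for P4ha1, 0.92 for Pfkp and 2.28 for Eno2. The size for Eno2 is uncertain, since its RAW values of experiment 1 lay near or below the floor. With 2 arrays per group, no group could be searched for an outlying array.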

How the results depend on the processing

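The count of RAW members that passed depended on the replicate block. It was 0 without a block, with the shared block and on leaving out any array. It was 6 with the block per line, and with that block 6 with averaged probe sets, 6 after cyclic loess, 6 with the stricter filter, 11 with an intensity trend and 5 with the RAW arrays alone. Ndrg1, Bnip3 and Slc16a3 passed in each of those 6 fits, Hk2 in all but the RAW arrays alone. The combinations with a second choice were added after seeing the data. In CT26 the count was 0 except for 1 with the block per line and an intensity trend. Between the lines alone 13 members passed, 22 with the block per line and 8 to 14 on leaving out an array.

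Median changes of the glycolysis enzymes in CT26 were 0.15 after loess and 0.11 with median-centred arrays, and 0.0677 to 0.16 on leaving out an array. In RAW they were 0.11 with averaged probe sets and 0.0019 to 0.23 on leaving out an array. Hypoxia targets in RAW gave 0.13 with averaged probe sets, 0.21 with the stricter filter and 0.16 to 0.50 on leaving out an array, and in CT26 -0.0693 to 0.76. For the RAW change minus the CT26 change the glycolysis median was -0.0437 after loess and -0.20 to 0.12 on leaving out an array, and the target median -0.60 to 0.36. The baseline target median ranged from -0.73 to 0.11. On leaving out an array, Bhlhe40 (-0.0354 to 0.93) and Mxi1 (-0.0345 to 0.76) in CT26 and Pfkl (-0.0834 to 1.01) in RAW changed sign. The fits that leave out an array have no block, so they set arrays of unlike experiments against each other. Within experiments 1 and 2 Bhlhe40 differed by 0.75 and 0.14, Mxi1 by 0.61 and 0.11 and Pfkl by 0.39 and 0.54. The cause of these dependences on the processing was not tested, and fewer arrays and residual degrees of freedom apply by construction.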
